A study of Homo sapiens with 8 samples.

Results

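The 10 genes described here encode glycoproteins and proteoglycans of the extracellular matrix and the cell surface: FN1, SPARC, TNC, VCAN, BGN, DCN, FBN1, HSPG2, SDC1 and SDC4. They were taken by gene symbol from 27475 human genes in the deposited table, and each symbol had 1 entry. The rule used no expression values, but earlier results of these data were known when the genes were chosen. RNA-seq was performed on RT112 and UM-UC-3, 2 established lines of human bladder cancer. Each line was transfected either with 3 pooled siRNAs that target PAI-1 (siPAI-1) or with 3 pooled scrambled siRNAs as the control (Scr), in both cases 100 pmol for 72 h. Each of the 4 groups has 2 libraries, so there are 8 libraries in all. Both lines were grown in RPMI 1640 or DMEM medium, and the labels do not say which line had which medium, so line and medium cannot be told apart if they differed. Each line is a single model, and the labels do not say that replicates came from separate cultures. The methods describe 3 independent knock-down experiments, without saying which of them the 2 libraries per group came from. The p-values measure the spread between these libraries, which may be partly technical. In bulk libraries, fewer cells that express a gene and less RNA per cell cannot be told apart.

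The extracellular matrix is a network of secreted proteins that holds cells, stores growth factors and signals through integrins. Glycoproteins such as fibronectin and fibrillin build fibrils, while matricellular proteins such as SPARC and tenascin-C change how cells attach to them. Proteoglycans carry long sugar chains, called glycosaminoglycans, on a protein core: some are secreted, and others, such as syndecans, sit in the plasma membrane as co-receptors. PAI-1, the protein targeted by the siRNAs, inhibits the plasminogen activators uPA and tPA, and it binds the matrix protein vitronectin.

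Values are TPM, which express a gene's share of the transcripts in a library after division by gene length. Differences on log2(TPM + 0.1) were tested with limma, p-values were adjusted by Benjamini-Hochberg over the genes above 0 in 1 or more libraries of the fit, and a gene was called at an adjusted p under 0.05. This scale understates the difference of genes with low values. Estimated depth was between 29.3 and 34.1 M reads per library (M for mega). Epithelial markers summed to 10821 to 11179 TPM in RT112 Scr and 189 to 203 TPM in UM-UC-3 Scr, and 10 of 10 were higher in RT112, led by the keratins KRT7, KRT19 and KRT18. Mesenchymal markers summed to 297.12 and 297.29 TPM in RT112 Scr and 3306 to 3645 TPM in UM-UC-3 Scr, where VIM, which encodes vimentin, made up most of the sum. By gene this list was split, with 6 of 10 lower in RT112 and 3 higher: TAGLN (transgelin) at 152.9 and 154.15 TPM against 0.84 and 1.46 TPM, SNAI2 at 68.2 and 70.41 against 16.44 and 15.73 TPM, and CDH2 (N-cadherin) at 18.19 and 20.58 against 10.61 and 9.22 TPM. The 10 fibroblast markers, which include DCN itself and the proteoglycan LUM, summed to 18.3 to 21.2 TPM in RT112 Scr and 241 to 252 TPM in UM-UC-3 Scr, mostly from COL3A1 and THY1. COL1A2, a defining fibroblast collagen, was listed at 0 in all 8 libraries, and COL1A1 was between 2.39 and 6.95 TPM. Endothelial markers summed to at most 8.97 TPM in any library, and the immune sum of at most 279.75 TPM was nearly all CD68, with PTPRC, the pan-leukocyte marker, at 0.03 TPM or less. COL1A2, COL1A1, PTPRC, TAGLN, SNAI2, CDH2 and ZEB2 were singled out after their values were seen.

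Promoter sequences are shown for 4 of the genes called between the lines in Scr. HSPG2, VCAN and DCN were called too, and for them no sequence is shown. The sequences shown are those of SPARC and TNC, lower in RT112, and FN1 and SDC1, higher in RT112. They come from RefSeq on GRCh38.p14, where 9 of the 10 genes had an entry (SDC1 with 2, of which the one at the annotated gene start is shown), and hold the 250 bases before the transcription start, 5′ to 3′ on the gene's strand. All 4 genes lie on the minus strand. Capitals mark matches on either strand to TATAA (a core of the TATA box), GGGCGG (the GC box), TGACGTCA (the cAMP response element) or CACCTG (an E-box).
SPARC promoter, chr5:151686916-151687165: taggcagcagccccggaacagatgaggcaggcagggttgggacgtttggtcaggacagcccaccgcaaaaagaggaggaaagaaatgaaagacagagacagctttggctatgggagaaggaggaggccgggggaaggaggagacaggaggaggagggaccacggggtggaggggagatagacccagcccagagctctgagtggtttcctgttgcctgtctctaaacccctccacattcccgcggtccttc
TNC promoter, chr9:115118158-115118407: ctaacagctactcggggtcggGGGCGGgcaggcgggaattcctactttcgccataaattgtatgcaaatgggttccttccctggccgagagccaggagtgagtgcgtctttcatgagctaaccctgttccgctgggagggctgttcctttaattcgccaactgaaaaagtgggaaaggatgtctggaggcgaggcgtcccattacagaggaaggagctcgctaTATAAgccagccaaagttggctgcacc
FN1 promoter, chr2:215436069-215436318: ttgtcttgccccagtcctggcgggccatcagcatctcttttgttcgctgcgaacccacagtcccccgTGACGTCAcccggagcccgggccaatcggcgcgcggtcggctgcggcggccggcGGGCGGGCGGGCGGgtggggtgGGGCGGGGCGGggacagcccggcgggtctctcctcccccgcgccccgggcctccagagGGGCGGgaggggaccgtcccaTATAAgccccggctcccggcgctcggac
SDC1 promoter, chr2:20225476-20225725: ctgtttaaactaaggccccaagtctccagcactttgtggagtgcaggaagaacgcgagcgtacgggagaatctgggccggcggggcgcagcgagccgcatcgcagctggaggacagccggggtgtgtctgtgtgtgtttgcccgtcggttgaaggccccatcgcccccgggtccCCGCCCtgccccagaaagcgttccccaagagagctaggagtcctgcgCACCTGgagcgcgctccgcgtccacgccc
The SPARC window held no match to any of the 4 motifs. The FN1 window held 6 matches to GGGCGG, some of which overlap, with 1 match to TGACGTCA and 1 to TATAA. TNC had 1 TATAA and 1 GGGCGG, and SDC1 had 1 GGGCGG, read on the other strand, and 1 CACCTG. Among all 35116 promoter windows of this length, TATAA was in 18.9%, GGGCGG in 42.6%, TGACGTCA in 1.6% and CACCTG in 17.5%. Of the 10 windows of these genes, 4 held TATAA, 8 held GGGCGG, 1 held TGACGTCA and 1 held CACCTG, and these windows are a description of letters only. The GC content ran from 54.8% in TNC to 82.8% in HSPG2, whose window held 8 matches to GGGCGG.

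**Figure D1:**
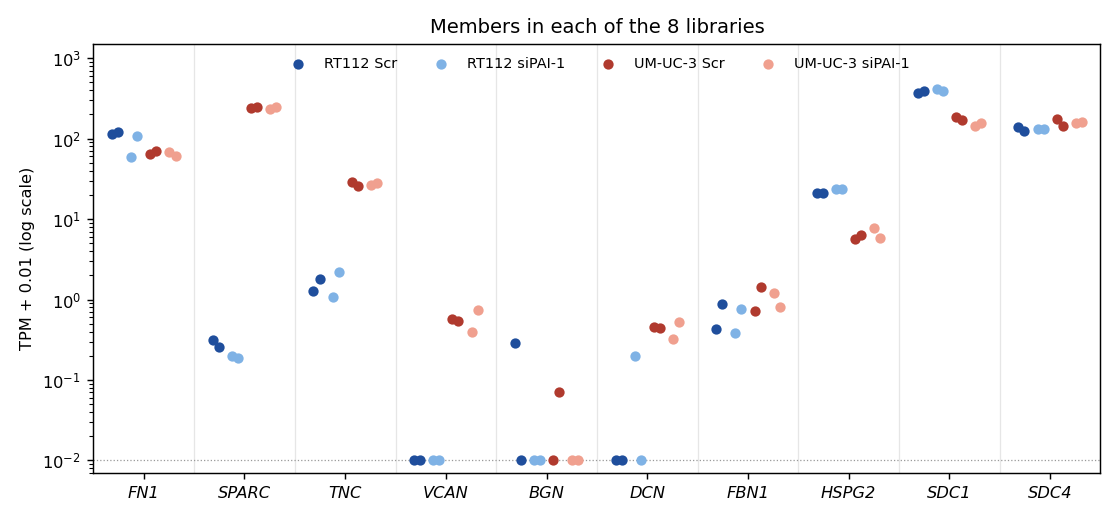
TPM of the 10 genes in each library, plotted as TPM + 0.01 on a log axis, where the dotted line marks genes listed at 0. Each point is 1 library, coloured by group. SPARC and TNC are high in the UM-UC-3 libraries and low in the RT112 libraries, while SDC1 and SDC4 are above 100 TPM in all 8.

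To describe how the lines differ before any knock-down, the Scr libraries of RT112 and UM-UC-3 were compared. SPARC and TNC were far higher in UM-UC-3. HSPG2, SDC1 and FN1 were 1.73-fold to 3.52-fold higher in RT112. VCAN, DCN, BGN and FBN1 stayed below 2 TPM in every library of either line. By count, 3 of the 10 were higher in RT112 and 4 were lower, beside 25.3% and 26.3% of the 19201 genes tested. With only 10 genes, these counts are close to what the shares over all genes give, and nothing is read from them about the group as a whole. The median log2 difference, RT112 minus UM-UC-3, was -0.46 over the 10 genes, 0.18 over the 8 that were above 0 in both groups and -0.06 over all genes tested, so its sign depends on genes listed at 0.

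Within RT112 Scr, SDC1 had the highest level, followed by SDC4, FN1, HSPG2, TNC and FBN1, and the 2 libraries of each of these neighbours did not overlap. SPARC at 0.3 and 0.25 TPM and BGN at 0.28 and 0 TPM overlapped at the low end, and VCAN and DCN were listed at 0. Within UM-UC-3 Scr the order began with SPARC, then SDC1 and SDC4, whose libraries overlapped (169.31 and 185.22 against 142.58 and 177.44 TPM), and FN1, TNC and HSPG2 followed without overlap. FBN1, VCAN, DCN and BGN were lowest, in this order. SPARC was thus first in one line and among the last in the other, and no other gene of the 10 moved as far in rank.

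Among the glycoproteins, SPARC (GRCh38 chromosome 5, 151661096 to 151686915), a collagen-binding matricellular protein also called osteonectin, was 242.23 and 249.15 TPM in UM-UC-3 Scr and 0.3 and 0.25 TPM in RT112 Scr. The RT112 values rest on about 17 to 21 reads per library at the estimated depth, against 17447 or more in UM-UC-3. No library of one line came near the other, and the mean of UM-UC-3 was 893-fold that of RT112 (log2 difference -9.36, SE 0.13, limma adjusted p = 0.000212). It was the widest difference of the 10 genes. TNC (chromosome 9, 115019575 to 115118157) encodes tenascin-C, a large oligomeric glycoprotein that is scarce in most adult tissue and common around tumours and wounds. UM-UC-3 had 28.57 and 25.71 TPM, while RT112 had 1.26 and 1.81 TPM, a 17.7-fold difference (log2 difference -4.08, SE 0.22, limma adjusted p = 0.000743).

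FN1 (chromosome 2, 215360865 to 215436068) encodes fibronectin, the fibril-forming ligand of integrins, which mesenchymal cells typically make. It went the other way from SPARC and TNC: 112.61 and 120.39 TPM in RT112 Scr and 64.29 and 70.56 TPM in UM-UC-3 Scr, with no overlap. The RT112 mean was 1.73-fold that of UM-UC-3 (log2 difference 0.79, SE 0.08, limma adjusted p = 0.00248). This call was lost when RT112 Scr replicate 1 or replicate 2 was left out (limma adjusted p = 0.0588 and 0.0668), with the difference at 0.84 and 0.74. FBN1 (chromosome 15, 48408313 to 48645709) encodes fibrillin-1, the backbone of microfibrils. Its values of 0.42 and 0.86 TPM in RT112 and 0.7 and 1.42 TPM in UM-UC-3 overlapped (log2 difference -0.64, 95% interval -2.10 to 0.82, limma adjusted p = 0.371). The 2 libraries of each line were farther apart than the means of the lines.

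The secreted proteoglycans did not share a direction. HSPG2 (chromosome 1, 21822244 to 21937310) encodes perlecan, the large heparan sulfate proteoglycan of basement membranes. It was 21.38 and 21.04 TPM in RT112 Scr and 5.72 and 6.32 TPM in UM-UC-3 Scr, a 3.52-fold difference (log2 difference 1.80, SE 0.11, limma adjusted p = 0.000924). VCAN (chromosome 5, 83471744 to 83582302) encodes versican, a hyaluronan-binding chondroitin sulfate proteoglycan. It was 0.57 and 0.53 TPM in UM-UC-3 Scr and listed at 0 in all 4 RT112 libraries. DCN (chromosome 12, 91140484 to 91182817) encodes decorin, a small leucine-rich proteoglycan that binds collagen fibrils, and was 0.45 and 0.43 TPM in UM-UC-3 Scr and listed at 0 in both RT112 Scr libraries. Both passed the test (limma adjusted p = 0.00292 for VCAN and 0.00362 for DCN), and no fold is given against a group at 0. At the estimated depth, these low values rest on at most about 148 reads for VCAN and 63 to 67 for DCN in a UM-UC-3 Scr library.

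BGN (chromosome X, 153494980 to 153509546) encodes biglycan, the closest relative of decorin, and was above 0 in 2 of 8 libraries: 0.28 TPM in RT112 Scr replicate 1, from about 14 reads, and 0.06 TPM in UM-UC-3 Scr replicate 2, from about 3 reads. The groups overlapped (limma adjusted p = 0.528), and no difference was detectable at this depth.

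The syndecans are transmembrane proteoglycans that bind growth factors and matrix through heparan sulfate chains. SDC1 (chromosome 2, 20200797 to 20225475), the main syndecan of epithelia, was 366.89 and 396.11 TPM in RT112 Scr and 185.22 and 169.31 TPM in UM-UC-3 Scr. The RT112 libraries lay above both UM-UC-3 libraries by 2.15-fold in the mean (log2 difference 1.11, SE 0.07, limma adjusted p = 0.00101). SDC4 (chromosome 20, 45325288 to 45348424), the syndecan of focal adhesions, was 139.81 and 123.83 TPM in RT112 Scr and 177.44 and 142.58 TPM in UM-UC-3 Scr. Its difference did not pass (log2 difference -0.27, 95% interval -0.65 to 0.10, limma adjusted p = 0.172). The 95% interval of the ratio of RT112 to UM-UC-3 was 0.639 to 1.07.

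**Figure D2:**
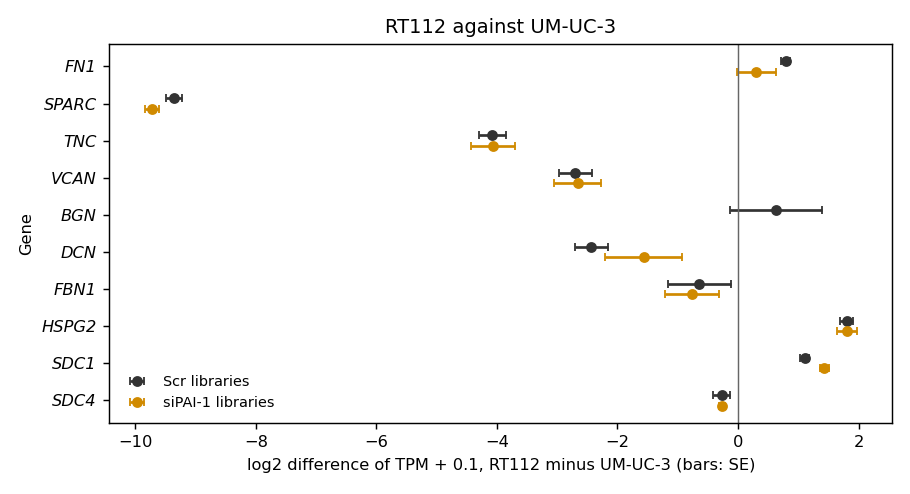
Difference between the lines for each gene, as log2(TPM + 0.1) in RT112 minus UM-UC-3, with bars for the SE from limma. Black points are the 2 against 2 Scr libraries and orange points the 2 against 2 siPAI-1 libraries. SPARC is at -9.36 and -9.72, and BGN has no orange point because it was listed at 0 in all 4 siPAI-1 libraries.

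The siPAI-1 libraries give the same contrast of the lines in cells that received siPAI-1, from libraries that the first comparison did not use. Of the 9 genes tested, 2 were higher in RT112 (HSPG2 and SDC1) and 4 were lower (SPARC, TNC, VCAN and SDC4), beside 26.2% and 26.1% of 19359 genes. SPARC was 0.19 and 0.18 TPM in RT112 and 234.48 and 247.16 TPM in UM-UC-3 (log2 difference -9.72, SE 0.12, limma adjusted p = 0.000221). For TNC the values were 1.08 and 2.18 TPM against 26.45 and 28.33 TPM (log2 difference -4.07, limma adjusted p = 0.00211). VCAN was 0.38 and 0.73 TPM in UM-UC-3 (limma adjusted p = 0.00748).

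On the RT112 side, SDC1 was 416.76 and 392.24 TPM against 142.26 and 157.51 TPM in UM-UC-3, a 2.70-fold difference (log2 difference 1.43, SE 0.07, limma adjusted p = 0.000668). HSPG2 was 23.87 and 23.58 TPM against 7.7 and 5.85 TPM (3.50-fold, limma adjusted p = 0.00232). SDC4 was 131.72 and 132.71 TPM in RT112 and 155.41 and 163.13 TPM in UM-UC-3, and its log2 difference of -0.27 passed here (SE 0.05, limma adjusted p = 0.0141) where the same size had not passed in Scr. Without trend in the variance prior, or in a fit over all 8 libraries, SDC4 no longer passed (limma adjusted p = 0.106 and 0.0824). FN1 did not pass with siPAI-1 (log2 difference 0.31, 95% interval -0.59 to 1.21, limma adjusted p = 0.468). Its 2 RT112 libraries were 58.25 and 108.44 TPM, on either side of the 67.82 and 60.83 TPM in UM-UC-3. DCN was 0.19 and 0 TPM in RT112 against 0.31 and 0.52 TPM (limma adjusted p = 0.116). Leaving out RT112 siPAI-1 replicate 1 left 1 gene higher and 2 lower, as did leaving out replicate 2, and leaving out UM-UC-3 siPAI-1 replicate 2 left 2 lower.

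The families around these genes split between the lines as well. Besides SDC1 and SDC4, the syndecan SDC3 was 20.56 and 23.17 TPM in RT112 Scr and 24.01 and 21.18 TPM in UM-UC-3 Scr, and SDC2 was 6.1 and 8.15 TPM against 7.75 and 5.67 TPM. Both overlapped and did not pass (limma adjusted p = 0.751 and 0.784). SDC2, SDC3, GPC4, CD44 and AGRN lie outside the rule for named genes and were chosen after their values were seen. The glypicans carry heparan sulfate on a lipid anchor. GPC1 was 279.74 and 287.13 TPM in RT112 Scr and 57.96 and 52.69 TPM in UM-UC-3 Scr (5.12-fold, limma adjusted p = 0.000311). GPC4 was also higher in RT112, at 14.48 and 12.79 against 1.65 and 1.7 TPM (limma adjusted p = 0.000748). GPC6 had the reverse pattern, at 0.03 and 0.07 TPM in RT112 and 8.72 and 6.56 TPM in UM-UC-3 (limma adjusted p = 0.000828).

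The relatives of SPARC did not share 1 direction. SMOC1, a secreted calcium-binding protein of the same family, was 0.2 and 0 TPM in RT112 Scr and 32.94 and 31.83 TPM in UM-UC-3 Scr (limma adjusted p = 0.00153). SPOCK1 (testican-1), a proteoglycan with a SPARC-like domain, was 99.76 and 99.75 TPM in RT112 Scr and 10.51 and 5.86 TPM in UM-UC-3 Scr, a 12.2-fold difference (limma adjusted p = 0.00172). LUM (lumican), like DCN and BGN a small leucine-rich proteoglycan, was 15.19 and 10.67 TPM in RT112 Scr and 0.88 and 0.19 TPM in UM-UC-3 Scr (limma adjusted p = 0.00762), opposite to DCN. Among the other membrane or basement membrane proteoglycans, CD44, the hyaluronan receptor, was 647.63 and 709.66 TPM in RT112 Scr and 544.75 and 559.94 TPM in UM-UC-3 Scr (log2 difference 0.30, limma adjusted p = 0.0193). AGRN (agrin), which like HSPG2 carries heparan sulfate, was 113.5 and 123.38 TPM against 76.56 and 77.65 TPM (limma adjusted p = 0.00307).

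**Figure D3:**
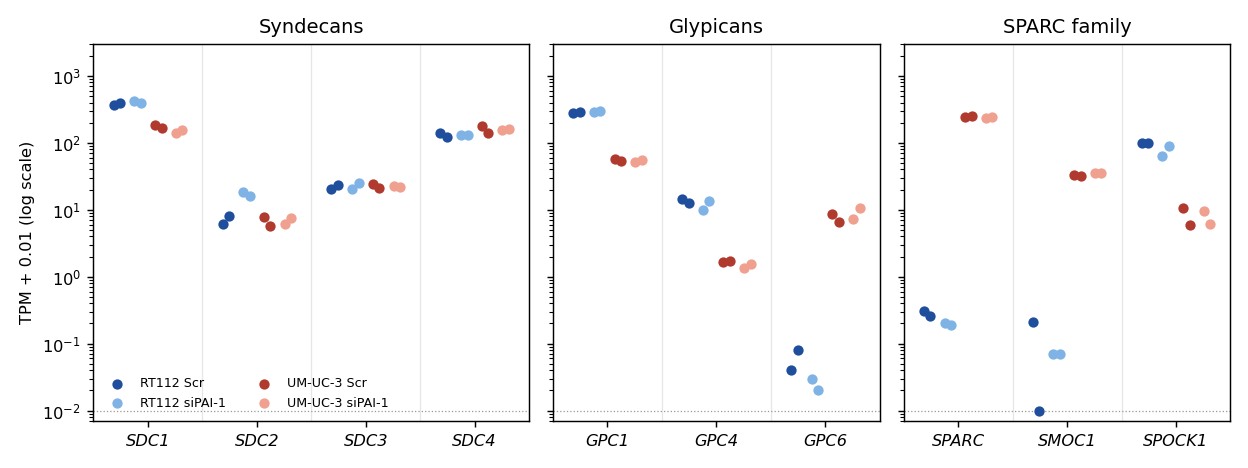
TPM + 0.01 on a log axis for the syndecans, 3 glypicans and 3 genes of the SPARC family in each library, with each point 1 library coloured by group and the dotted line at genes listed at 0. SDC3 lies between 20.41 and 25.33 TPM in all 8 libraries, while SPARC and SMOC1 are high in UM-UC-3 and SPOCK1 is high in RT112.

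Of 142 further matrix genes in 4 lists, 127 were tested between the lines in Scr: 41 were higher in RT112, 40 were lower and 46 did not pass. Over all genes tested, 25.3% were higher and 26.3% lower with a median of -0.06, and the counts of each list are to be read against these values. Among 45 further matrix glycoproteins, 13 were higher in RT112 and 15 lower, near the shares of 25.3% and 26.3% over all genes, with a median log2 difference of -0.46. Higher in RT112 were TINAGL1, a tubulointerstitial nephritis antigen relative of basement membranes, at 503.02 and 488.81 TPM against 0.11 and 0.79 TPM, and FBLN1 (fibulin-1) at 355.49 and 373.51 against 22.36 and 19.93 TPM. TGFBI, an integrin ligand induced by TGF-beta, was 314.88 and 312.35 against 15.92 and 16.44 TPM. THBS1 (thrombospondin-1), a matricellular protein like SPARC, was 299.34 and 293.09 against 3.32 and 4.86 TPM, a 72.4-fold difference. Higher in UM-UC-3 were the CCN family members CTGF, at 122.16 and 101.46 TPM against 1.97 and 1.54 TPM, and NOV, at 5.33 and 5.07 against 0.26 and 0.32 TPM. POSTN (periostin) was 2.44 and 4.42 TPM in UM-UC-3 Scr and listed at 0 in RT112 Scr.

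Among 24 further genes of the proteoglycan list, 10 were higher in RT112 and 4 lower, beside 25.3% and 26.3% of all genes. This list also holds the hyaluronan link proteins (HAPLN genes). The median log2 difference was 0.40 (0.62 over the 19 above 0 in both groups) beside -0.06 over all genes. Besides GPC1, SPOCK1 and LUM, TGFBR3 (betaglycan, a TGF-beta co-receptor) was 14.07 and 12.04 TPM in RT112 Scr against 5.39 and 4.92 TPM. Besides GPC6, those higher in UM-UC-3 were SRGN (serglycin, an intracellular granule proteoglycan) at 44.33 and 35.16 against 2.75 and 2.54 TPM, and the cartilage genes HAPLN1 and ACAN, which were listed at 0 in RT112 Scr and at most 3.71 TPM in UM-UC-3 Scr. The sign of this list's median is opposite to that of the glycoproteins, and the difference between the lists was not tested.

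The enzymes that build the sugar chains were above 0 in both Scr groups for all 35 on the list. Of these, 11 were higher in RT112 and 12 lower, beside 25.3% and 26.3% of all genes, with a median of -0.23. UGDH, which makes the glucuronic acid precursor, was 2.16-fold higher in RT112, and the heparan sulfate 6-O-sulfotransferases HS6ST1 and HS6ST2 were 11.4-fold and 2.43-fold higher. CHPF, a chondroitin polymerising factor, was 5.36-fold higher in RT112, whereas the chondroitin enzymes CHST3 and CSGALNACT2 were 12.7-fold and 3.47-fold higher in UM-UC-3. B3GAT3, which completes the linker between core protein and chain, and EXTL2 were 2.96-fold and 2.48-fold higher in UM-UC-3.

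For matrix processing, 7 of 23 genes were higher in RT112 and 9 lower, beside 25.3% and 26.3% of all genes, with a median of -0.07 (-0.52 over the 18 above 0 in both groups). SULF2, which removes 6-O-sulfate from heparan sulfate outside the cell, was 129.86 and 129.49 TPM in RT112 Scr and 1.56 and 2.39 TPM in UM-UC-3 Scr. SERPINH1, the collagen chaperone HSP47, was 98.36 and 102.14 TPM in RT112 Scr and 0.22 and 0.39 TPM in UM-UC-3 Scr. FURIN, a proprotein convertase, was 8.04-fold higher in RT112. The lysyl oxidases, which cross-link collagen and elastin, split: LOXL1 was 43.28 and 42.33 TPM in RT112 Scr against 0 and 0.02 TPM, and LOXL2 was 19.12 and 18.46 TPM against 242.71 and 213.65 TPM. PCOLCE2, an enhancer of procollagen processing, and TGM2, a transglutaminase that cross-links fibronectin, were 414.5-fold and 7.51-fold higher in UM-UC-3, and the hyaluronidase HYAL2 was 2.00-fold higher there.

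SDC1, SDC4 and SPARC had the highest mean TPM, and the patterns most like theirs were sought over the 8 libraries among 12802 genes, as the root mean square difference of log2 values centred on each gene's mean. For SDC1 these were DHX32, NR2F6 and TACC3 (0.06 to 0.07), and for SDC4 EXOC7, NUDT3 and YWHAQ (0.06 each). For SPARC they were THY1, KCNMA1 and MAGEA4, with larger differences of 0.30 to 0.37. THY1 was 96.31 and 96.42 TPM in UM-UC-3 Scr and 0.12 and 0.1 TPM in RT112 Scr. The likeness rests on 2 lines, so any gene with a line difference of similar size is alike in this sense.

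Next, siPAI-1 was compared with Scr within each line, which asks what the depletion of PAI-1 does to these genes. In UM-UC-3, 0 of the 10 genes passed, where limma also called 0% of 18528 genes. At an unadjusted p under 0.05 there was 1 of 10, SDC1, beside 6.01% of all genes. SDC1 was 142.26 and 157.51 TPM with siPAI-1 and 185.22 and 169.31 TPM with Scr, so the groups did not overlap, and the mean differed by -15.5% (log2 difference -0.24, SE 0.08, 95% interval -0.44 to -0.04, limma adjusted p = 0.791). It was the only gene of the 10 whose UM-UC-3 groups did not overlap, beside 32.2% of all genes tested.

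The other abundant genes in UM-UC-3 had narrow intervals around no difference. SPARC was 234.48 and 247.16 TPM with siPAI-1 and 242.23 and 249.15 TPM with Scr, with a 95% interval of the ratio from 0.891 to 1.08. The interval of the ratio was 0.819 to 1.11 for FN1, 0.855 to 1.19 for TNC and 0.820 to 1.22 for SDC4. HSPG2 was 7.7 and 5.85 TPM with siPAI-1 and 5.72 and 6.32 TPM with Scr, which overlap (ratio 0.775 to 1.60). For VCAN, DCN and FBN1, at about 1 TPM or below, the intervals were wide, from 0.424 to 2.06 for DCN to 0.404 to 2.34 for FBN1. With 2 libraries per group, a change of moderate size in these genes would not have been detectable.

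In RT112, 0 of the 9 genes tested passed, and limma called 0% of 18437 genes there. None of the 9 had an unadjusted p under 0.05 by limma, beside 5.77% of all genes. Groups did not overlap for 3 of the 9, FN1, SPARC and HSPG2, beside 32.7% of all genes. FN1 was 58.25 and 108.44 TPM with siPAI-1 and 112.61 and 120.39 TPM with Scr (log2 difference -0.55, SE 0.30, 95% interval -1.34 to 0.24, limma adjusted p = 0.838). The size rests on replicate 1: without it the log2 difference was -0.10, and without replicate 2 it was -0.998. HSPG2 was 23.87 and 23.58 TPM with siPAI-1 against 21.38 and 21.04 TPM, a difference of 11.9% (log2 difference 0.16, SE 0.08, limma adjusted p = 0.838). SPARC was 0.19 and 0.18 TPM against 0.3 and 0.25 TPM, from about 13 to 15 reads against 17 to 21.

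For the syndecans in RT112, SDC1 was 416.76 and 392.24 TPM with siPAI-1 and 366.89 and 396.11 TPM with Scr, which overlap (ratio 0.942 to 1.19). SDC4 was 131.72 and 132.71 TPM against 139.81 and 123.83 TPM (ratio 0.874 to 1.16). TNC, at 1.08 and 2.18 TPM against 1.26 and 1.81 TPM, had a ratio between 0.428 and 2.42. VCAN was listed at 0 in all 4 RT112 libraries and was not tested.

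The difference of the knock-down effect between the lines was tested in 1 model over the 8 libraries. It gave 0 of 10 genes, and 0% of all 20274 genes tested, at an adjusted p under 0.05 by limma. At an unadjusted p under 0.05 it gave SDC1 alone, beside 6.76% of all genes. The log2 effect on SDC1 was 0.08 in RT112 and -0.24 in UM-UC-3, a difference of 0.33 (SE 0.11, 95% interval 0.07 to 0.59, limma adjusted p = 0.668). For FN1 the difference was -0.48 (SE 0.37, limma adjusted p = 0.846). The count over all genes depended on single libraries: without RT112 siPAI-1 replicate 2 limma called 101 genes higher and 22 lower. It called 20 higher without RT112 siPAI-1 replicate 1, 2 higher and 42 lower without UM-UC-3 siPAI-1 replicate 1, and 1 lower without UM-UC-3 Scr replicate 2. None of the 10 genes was among them.

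**Figure D4:**
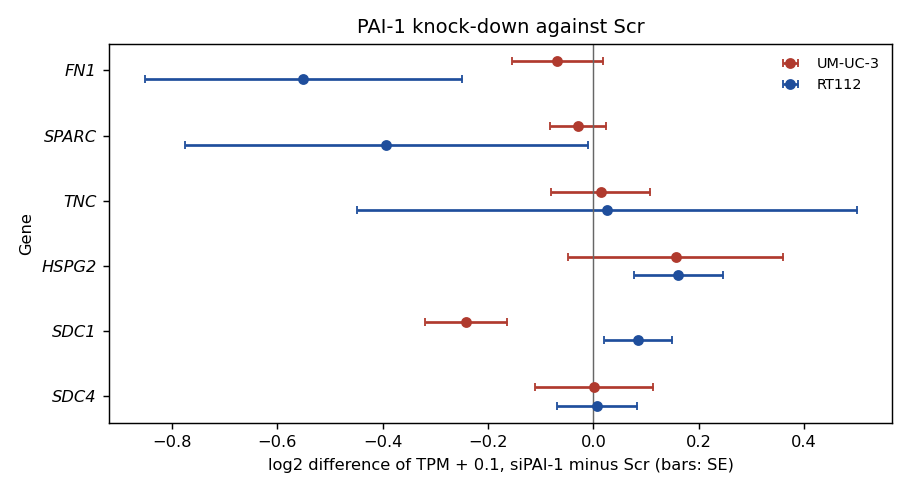
Knock-down effect on the 6 genes that averaged 1 TPM or more over the Scr libraries, as log2(TPM + 0.1) with siPAI-1 minus Scr, with bars for the SE from limma (2 against 2 libraries per line). FN1 in RT112 is the farthest below 0, at -0.55 with a wide bar, and SDC1 lies on opposite sides of 0 in the lines.

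Of the further matrix genes, 0 of 131 in UM-UC-3 and 0 of 124 in RT112 passed by limma. At an unadjusted p under 0.05, UM-UC-3 had 1 gene higher and 4 lower with siPAI-1, while RT112 had 2 higher and 1 lower. Both counts lie below the shares over all genes, 6.01% and 5.77%. Among these, chosen after its values were seen, was the syndecan SDC2 in RT112: 18.64 and 16.23 TPM with siPAI-1 and 6.1 and 8.15 TPM with Scr. Both knock-down libraries lay above both controls, with a mean 2.45-fold as high (log2 difference 1.29, SE 0.19, limma adjusted p = 0.838). In UM-UC-3 SDC2 was 6.14 and 7.43 TPM against 7.75 and 5.67 TPM, which overlap. The difference between the lines in this effect was 1.26 (SE 0.31), and it did not pass either (limma adjusted p = 0.632).

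The 2 RT112 siPAI-1 libraries differed from each other in FN1 and in other genes. As a whole, this pair was about as far apart as the other pairs. Over genes averaging 1 TPM or more, the standard deviation of the log2 difference between its libraries was 0.451. The value was 0.455 in RT112 Scr, 0.440 in UM-UC-3 siPAI-1 and 0.451 in UM-UC-3 Scr. FN1 was 50.0% of the Scr mean in replicate 1 and 93.1% in replicate 2. THBS1 was 40.8% in replicate 1 and 80.8% in replicate 2, and SPOCK1 was 64.1% and 88.7%. Both are shown here because of these values, and not all matrix genes named above went this way. LOXL1 was 103.6 TPM in replicate 1 and 53.28 TPM in replicate 2, and FBLN1 was 407.49 and 372.47 TPM. How many matrix genes went each way was not counted. Other genes chosen after their values were seen were TAGLN at 30.5% and 74.3%, CDH2 at 39.5% and 92.5%, AXL at 49.3% and 92.0%, and SNAI2 at 61.9% and 90.5%. Over the whole mesenchymal list, 7 of 10 genes were lower in replicate 1 than in replicate 2, 1 was higher (ZEB2, at 0.17 and 0.08 TPM) and 2 were equal, with sums of 129 and 246.96 TPM. VIM, at 6.28 and 8.09 TPM, overlapped its 7.81 and 6.04 TPM in Scr. Of the epithelial markers 8 of 10 were also lower in replicate 1, with sums of 9557 and 10856 TPM. Of the fibroblast markers 6 of 10 were higher in replicate 1, with sums of 26.11 and 21.13 TPM. The shares over all genes were not computed for these counts, so nothing is read from them about the lists. The part of these values in the FN1 difference was not tested.

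**Figure D5:**
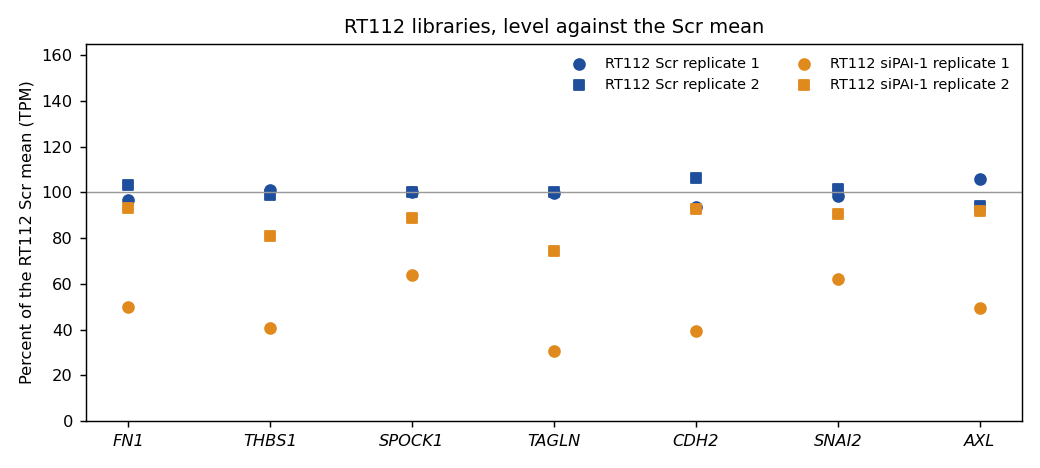
Level of FN1 and 6 further genes in each RT112 library as a percent of the mean of the RT112 Scr libraries, with circles for replicate 1 and squares for replicate 2. RT112 siPAI-1 replicate 1 is lowest for all 7 genes, at 30.5% to 64.1%. The 6 further genes were chosen after their values were seen, so nothing is read from how many were lowest.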

How the data were processed

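The deposited TPM and FPKM values per gene were used as the authors made them, rounded to 2 decimals. TPM sums to the same total in each library, while FPKM keeps the scale of each library. The submitters' processing notes list STAR 2.5.0, RSEM 1.2.25 and GRCh38, whereas the methods name cutadapt, STAR, featureCounts and DESeq2, so which program made the values is not settled. Counts were not analysed here, and limma takes the place of DESeq2.

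Of 27567 entries, 92 spike-ins at 0 were left out. limma 3.58.1 in R 4.3.3 (lmFit, eBayes with trend, two-sided) was run on log2(TPM + 0.1) over the genes above 0 in at least 1 library of the fit, with 2 libraries against 2, and over all 8 libraries for the difference between lines. The code was tested on simulated data. Depth was estimated between 20 and 45 M reads from FPKM steps of short genes with 1 transcript. A depth about 2 times as large would give whole reads too. Read numbers per gene assume the lower depth and the longest transcript. They are approximate, and at that depth they are upper estimates, since shorter transcripts would give fewer reads. Groups came from the labels.

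Members and gene lists were chosen with earlier results of these data known. Named were the 10 genes, up to 4 further genes per list and direction with the highest mean TPM among those called and at least 2-fold apart between the lines in Scr, the 3 genes most like each of the 3 highest members, and up to 3 markers per list. A result that the rule also covers is not reported here. Alternatives were a pseudocount of 1 or 0.01, FPKM, median ratio rescaling, a filter on a mean of at least 1 TPM, a fit over all 8 libraries, a replicate block, no trend, and each library left out in turn. Python 3.11.15 with matplotlib 3.10.9 drew the plots.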

Additional observations from a re-analysis of the deposited data

How the results depend on the processing

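The number of the 10 genes lower in RT112 in the Scr comparison was 2 rather than 4 when only genes averaging 1 TPM or more were tested, since VCAN and DCN then drop out. With each library left out in turn, the Scr comparison gave 2 to 3 genes higher and 4 lower, and the siPAI-1 comparison 1 to 2 higher and 2 to 3 lower. In these fits 1 library stands alone and is taken to vary like the other group. The knock-down comparisons gave 0 of these genes in each setting. Over all genes, leaving out 1 library lowered the counts in Scr from 4850 to 2975 to 3120 higher and from 5059 to 2655 to 3589 lower. With siPAI-1 they went from 5064 to 2492 to 3904 and from 5044 to 2802 to 3238. For the difference of the knock-down between lines they went from 0 to as many as 101 higher and 42 lower, with 0 to 2 further matrix genes lower. Further matrix genes went from 41 to 26 to 29 higher and from 40 to 24 to 32 lower in Scr.

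Signs turned for differences that did not pass. For SDC4 the knock-down difference was -0.0039 in UM-UC-3 with FPKM and -0.0037 in RT112 with median ratio rescaling. With 1 library left out, log2 differences ran from -0.34 to 1.59 for BGN between the lines in Scr and from -0.14 to 0.75 for FN1 between the lines with siPAI-1, where the negative value came without RT112 siPAI-1 replicate 2. For the knock-down in UM-UC-3 they ran from -0.147 to 0.00997 for FN1, -0.0672 to 0.00875 for SPARC, -0.0615 to 0.0901 for TNC, -0.504 to 0.422 for FBN1, -0.0389 to 0.352 for HSPG2 and -0.16 to 0.16 for SDC4. For the knock-down in RT112 they ran from -0.45 to 0.50 for TNC and -0.0805 to 0.0944 for SDC4. DCN between the lines with siPAI-1 passed in the fit over all 8 libraries (limma adjusted p = 0.0434). The causes were not tested.

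Replicates that share a number did not deviate together: the correlation of replicate 1 minus replicate 2 between groups was -0.043 to 0.098 across 12803 genes, which are not independent. With a replicate block, 3 genes were higher and 5 lower in RT112 in the Scr comparison, the added one being SDC4 at -0.27 (limma adjusted p = 0.0355), and 2 higher and 4 lower with siPAI-1. The knock-down comparisons stayed at 0. Over the fold differences followed here, 364 of the recomputed values kept direction and side of the threshold, 13 no longer passed, 2 newly passed and 16 changed sign.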
